A study of Homo sapiens with 2 samples.

Results

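The genes described here are 49 genes whose promoter CpG islands are often methylated, and whose transcripts are often silenced, in colorectal cancer. They were chosen by symbol, with older symbols updated through their gene identifiers, and every probe named for them on the array was read. Of the 49 genes, 47 had at least 1 named probe and 75 probes in all, out of 18852 named genes on the array, and CRABP1 and CDH13 had no named probe and were not analysed here. Total RNA came from SW48 cells, a widely used line from a human colorectal adenocarcinoma, grown in serum-supplemented medium. The treated group, labelled AKBA, was 1 culture given acetyl-11-keto-β-boswellic acid, a triterpenoid of Boswellia resin, at 20 µM for 6 days. The control was 1 culture that the treatment protocol describes as given 0.1% DMSO vehicle and the source name as non-treated. Each culture was read on 1 Illumina bead array of 48803 probes. With 1 array per group no difference could be tested or checked in a replicate, and higher and lower describe these 2 arrays. An effect of the vehicle cannot be told apart from the rest of the difference, and methylation itself was not measured.

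CpG islands are stretches rich in the dinucleotide CG that cover the promoters of many genes and are normally free of methylation. When DNA methyltransferases methylate such an island, the gene is usually transcribed little or not at all. Colorectal cancers gain this mark at many islands, and a subset with widespread gains is called CIMP, the CpG island methylator phenotype. Several of the genes are brakes on Wnt signalling or on the cell cycle, and others are read as methylation markers in stool or blood tests.

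Of the 47 genes measured, 37 were silent, 5 lay near the detection limit and 5 were expressed. The expressed genes were SEPTIN9, NDRG4, RASSF1, CDKN2A and CDKN2B. A detection p is the share of the 759 negative controls of that array that were brighter than the probe, and silent here means that no probe had a detection p under 0.05 on either array. Expressed means that a probe had a detection p under 0.01 on at least 1 array, and near the limit means a lowest detection p at or above 0.01 and under 0.05. Over all named genes, 43.2% were silent, 11% near the limit and 45.8% expressed. No normal colon sample was analysed here, so silent means only not detected in SW48. A silent gene may still be transcribed below the sensitivity of the array. Of the 47 genes, 31 had only 1 probe. A single probe can miss a transcript that another probe of the gene detects, as for NDRG4 below.

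The sequences shown for these genes are stretches before transcription starts, where many CpG islands lie. The promoters of the 3 expressed genes with the largest differences between the arrays, NDRG4, RASSF1 and SEPTIN9, and of UNC5C and SLC5A8, which lay near the detection limit, are printed below from RefSeq on GRCh38.p14. Each shows the 250 bases before the outermost start held in the RefSeq promoter table, 5′ to 3′ on the gene's strand, with every CG in capitals. No start of BMP3, HIC1 or SAMD14, the other genes near the detection limit, was held there, so none is printed for them. The NDRG4 stretch lies at chr16:58463465-58463714 on the plus strand and holds 40 CG. The RASSF1 stretch, at chr3:50337451-50337700 on the minus strand, holds 25 CG and lies within the gene, downstream of its outermost start. The SEPTIN9 stretch, at chr17:77281249-77281498 on the plus strand, holds 32 CG. The UNC5C stretch, at chr4:95548974-95549223 on the minus strand, holds 17 CG, and the SLC5A8 stretch, at chr12:101210239-101210488 on the minus strand, holds 10 and is not CpG-rich by the limits given below. Neither the internal SEPTIN9 island read in blood tests nor the promoter of RASSF1A was identified among these stretches.
NDRG4: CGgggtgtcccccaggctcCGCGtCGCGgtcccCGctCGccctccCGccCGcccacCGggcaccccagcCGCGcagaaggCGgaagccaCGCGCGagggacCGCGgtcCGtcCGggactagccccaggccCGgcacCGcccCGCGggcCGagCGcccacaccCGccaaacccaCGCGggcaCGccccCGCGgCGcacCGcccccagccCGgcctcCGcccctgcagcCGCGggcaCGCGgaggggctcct
RASSF1: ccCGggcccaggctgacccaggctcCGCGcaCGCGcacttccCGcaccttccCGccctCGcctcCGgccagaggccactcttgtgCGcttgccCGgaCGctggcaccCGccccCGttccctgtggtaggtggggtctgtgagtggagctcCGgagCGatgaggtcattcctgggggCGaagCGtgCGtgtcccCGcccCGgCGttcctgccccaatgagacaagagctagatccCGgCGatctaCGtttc
SEPTIN9: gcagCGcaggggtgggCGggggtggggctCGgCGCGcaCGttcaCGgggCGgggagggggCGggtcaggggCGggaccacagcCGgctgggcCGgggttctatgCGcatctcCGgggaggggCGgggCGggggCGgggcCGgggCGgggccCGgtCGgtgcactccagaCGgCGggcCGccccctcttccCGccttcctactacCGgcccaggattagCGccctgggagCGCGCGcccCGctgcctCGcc
UNC5C: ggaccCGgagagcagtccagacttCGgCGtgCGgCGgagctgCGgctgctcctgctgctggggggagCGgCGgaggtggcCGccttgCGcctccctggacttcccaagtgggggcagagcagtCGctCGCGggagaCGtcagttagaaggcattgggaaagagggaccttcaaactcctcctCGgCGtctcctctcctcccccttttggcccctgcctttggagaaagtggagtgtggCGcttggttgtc
SLC5A8: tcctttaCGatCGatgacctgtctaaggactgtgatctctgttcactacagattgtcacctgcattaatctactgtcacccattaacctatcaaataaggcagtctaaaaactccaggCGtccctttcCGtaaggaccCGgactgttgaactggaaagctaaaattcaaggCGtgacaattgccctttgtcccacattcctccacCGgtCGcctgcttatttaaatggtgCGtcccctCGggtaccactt

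The RefSeq promoter table held windows of 300 bases, 250 before a start and 50 after it, for 33 of the 49 genes, 56 windows in all. A window was called CpG-rich when its GC content was at least 50% and its CG count at least 0.6 of that expected from its C and G content. Of the 33 genes, 28 had at least 1 CpG-rich window (84.8%), against 68.3% of 14873 genes with a window and a named probe. The exceptions were SFRP2, RASSF2, IRF8, SPARC and SLC5A8. The highest ratio of observed to expected CG per gene had a median of 0.82 over the 33 genes and of 0.80 over all 14873. All 5 expressed genes had a CpG-rich window, as did 21 of the 25 silent genes with a window. NDRG4 had 2 CpG-rich windows of 4 and SEPTIN9 3 of 10, so starts of different CG density lie within these genes.

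**Figure D1:**
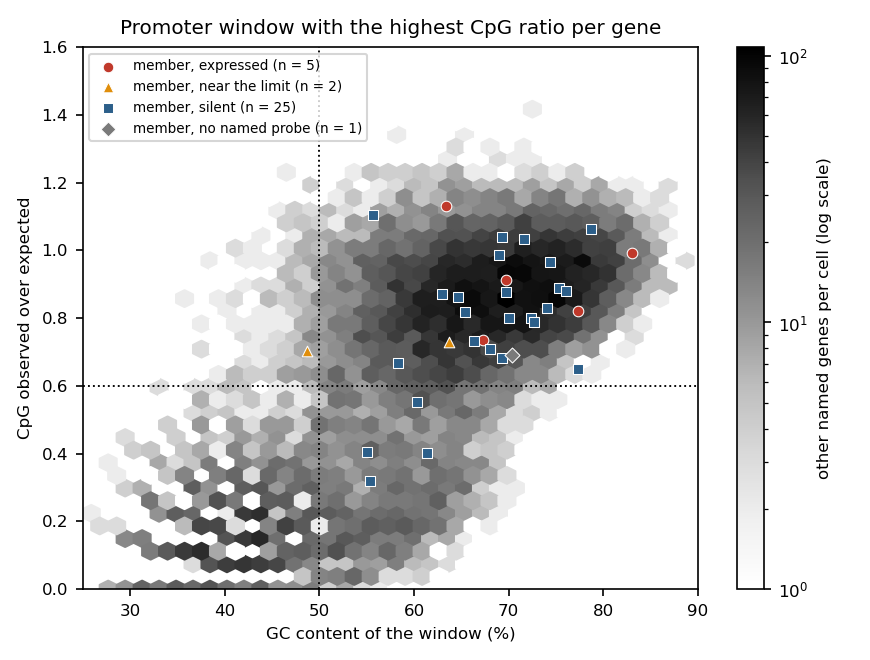
GC content (%) of a 300 base promoter window on the x axis and its ratio of observed to expected CG on the y axis, with the window of highest ratio for each gene; grey cells count other named genes on a log scale, coloured points are the 33 genes by detection class, and dotted lines mark 50% and 0.6. Expressed and silent genes share the CpG-rich corner, which holds 28 of the 33.

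The share detected was set beside that of other genes with promoters of the same kind. Among the 27 measured genes with a CpG-rich window, 4 were detected at a p under 0.01 on the AKBA array (14.8%) and 5 on the control array (18.5%). Among all 10156 named genes with a CpG-rich window, the shares were 59.5% on the AKBA array and 63.4% on the control array. Genes whose windows were not CpG-rich, 4717 in number, were detected in 13.0% on the AKBA array and 14.8% on the control array. Over all 47 measured genes, 4 were detected on the AKBA array (8.51%) and 5 on the control array (10.6%), against 42.3% and 45.6% of all named genes. At a p under 0.05, 8 of the 47 were detected on the AKBA array (17.0%) and 7 on the control array (14.9%), against 54.1% and 54.4% of all named genes. Each gene was counted by its brightest probe, taken as the mean over both normalized arrays, and the counts describe the arrays with no test.

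**Figure D2:**
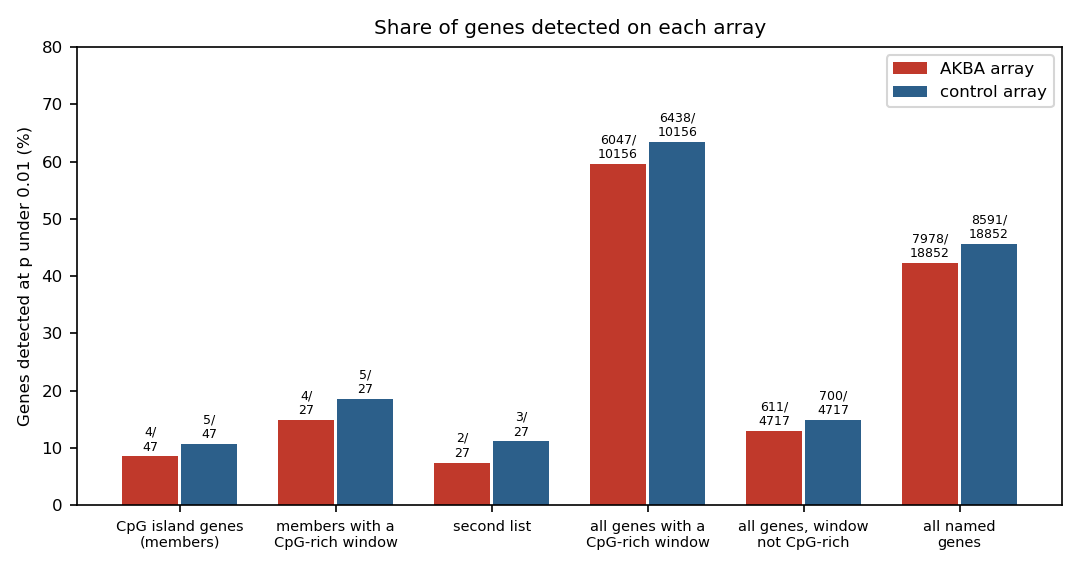
Share of genes (%) with a detection p under 0.01 on the AKBA array (left bar of each pair) and the control array (right bar), with the numbers detected and measured above each bar; the second list is a separate set of colorectal CpG island genes. The 27 CpG island genes with a CpG-rich window were detected in 14.8% and 18.5%, and all 10156 genes with such a window in 59.5% and 63.4%.

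The cell type named in the labels was checked against its markers. EPCAM, CDH1, KRT8, KRT18, KRT19 and CDX2 were detected on both arrays, 6 of 12 colorectal epithelial markers. The other 6, KRT20, VIL1, CDX1, LGALS4, GPA33 and CDH17, which include markers of differentiated colon epithelium, were not detected on either array. None of 6 fibroblast and 3 endothelial markers was detected at a p under 0.01, and of 5 measured leukocyte markers CD68 and LYZ were detected on both arrays. The summed signals of the epithelial markers were 14830 on the AKBA array and 15789 on the control array, those of the leukocyte markers 1036 and 881, those of the fibroblast markers 453 and 446, and those of the endothelial markers 249 and 256. After the normalization described below, 5 of the 6 detected epithelial markers were higher on the AKBA array, with log2 differences of 0.026 (CDH1) to 0.59 (KRT18), and CDX2 was lower at -0.40. CD68 stood at 0.77 and LYZ at 0.38. CDH1 turned to -0.26 once the arrays were scaled to equal medians and to -0.035 in the values the authors processed, and the other 7 of these markers kept their sign. The part of these markers in the differences below was not tested. The AKBA array was the dimmer, with 11329 probes (23.2%) detected at a p under 0.01 and a mean signal of 365, against 12389 probes (25.4%) and a mean of 425 on the control array. At a p under 0.05 the arrays detected 16182 and 16178 probes, so the gap lay at the stricter limit.

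Between the arrays, no gene of the 47 passed from undetected on the control array to detected on the AKBA array at the 0.01 limit, and 1 gene, CDKN2B, passed the other way. Over all named genes, 0.255% were detected at 0.01 on the AKBA array only and 3.51% on the control array only. At the 0.05 limit, BMP3, HIC1 and SAMD14 were detected on the AKBA array only, and SLC5A8 and UNC5C on the control array only. Over all named genes, 2.4% were detected at 0.05 on the AKBA array only and 2.64% on the control array only. Counts of 3 and 2 among 47 genes have no replicate check, and none of the 5 genes reached 0.01 on either array. The lowest signal detected at 0.05 was 93.1 on the AKBA array and 99.3 on the control array. The AKBA signals of HIC1 (93.5) and BMP3 (96.5) lay between these limits, and that of SAMD14 (105) above both. The control signals of UNC5C (109) and SLC5A8 (110) lay above both as well. In RNA of whole cultures, fewer cells that express a gene and less RNA per cell cannot be told apart.

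**Figure D3:**
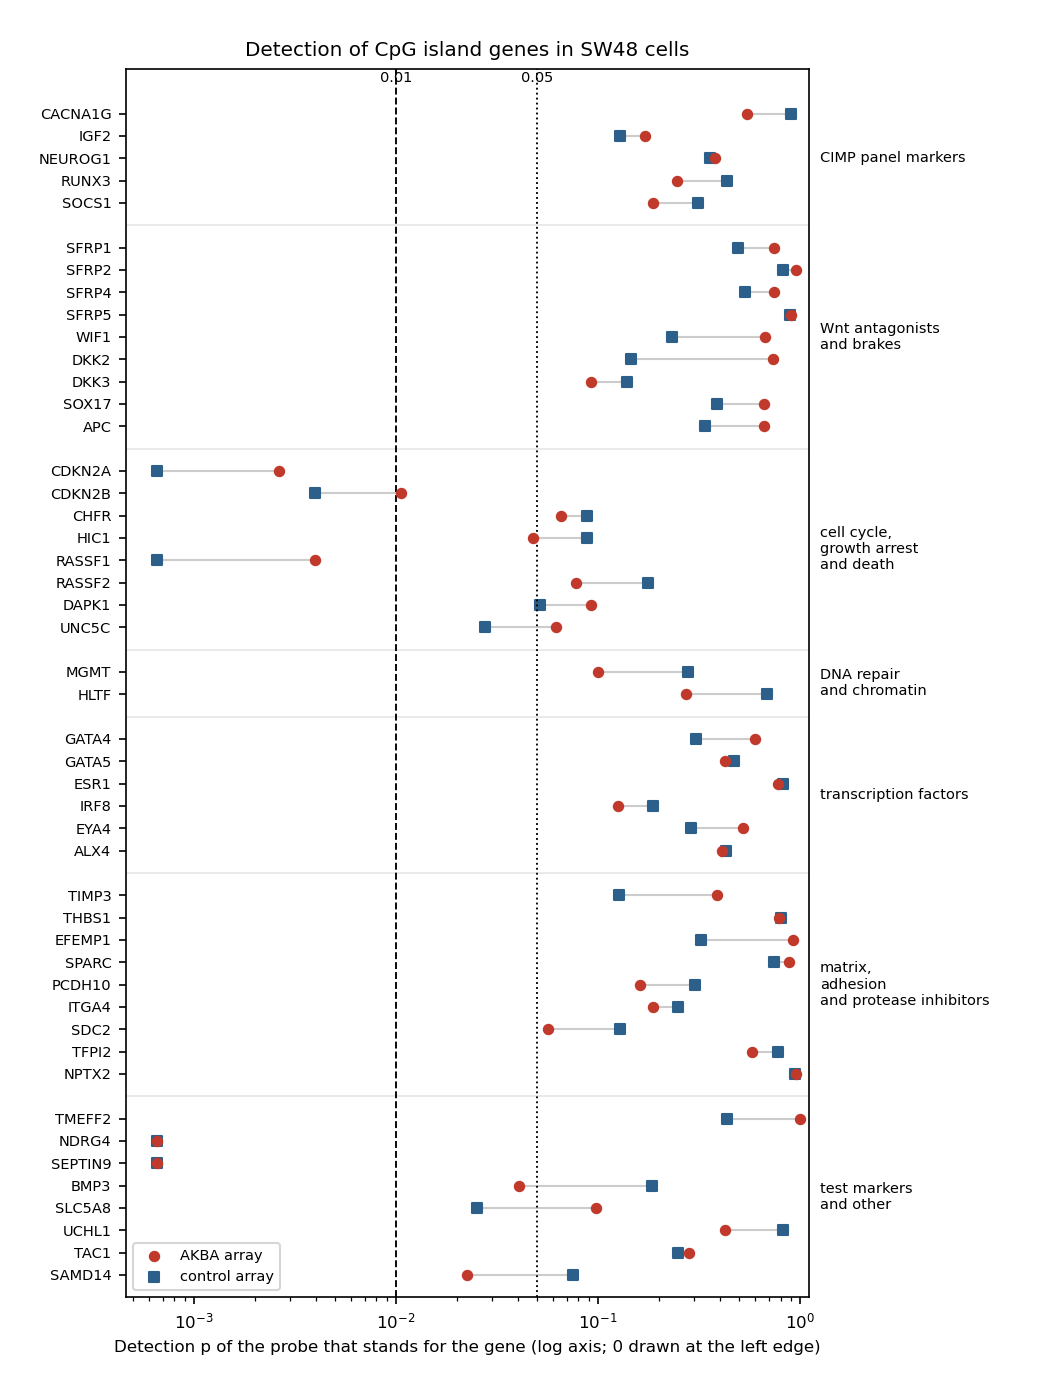
Detection p (log axis) of the probe that stands for each of the 47 genes, by role, on the AKBA array (red circles) and the control array (blue squares), with lines at 0.01 and 0.05 and a p of 0 drawn at the left edge. CDKN2A, RASSF1, NDRG4 and SEPTIN9 lie left of 0.01 on both arrays, CDKN2B straddles that line, and BMP3, HIC1, SAMD14, SLC5A8 and UNC5C straddle 0.05.

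SEPTIN9 encodes a septin, a filament-forming GTPase, and methylation of an internal island of the gene is read in a blood test for colorectal cancer. Its single probe gave a bead signal of 4667 on the AKBA array and 6923 on the control array, with a detection p of 0 on both, for which the Wilson 95% interval reaches 0.00504. The signal was far above background on both arrays. After background correction and quantile normalization, which evens out the dimness of the AKBA array, the log2 signal was 12.31 in AKBA cells and 12.61 in control cells, a log2 difference of -0.29. The median gene detected on at least 1 array stood at -0.024.

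NDRG4 encodes a cytoplasmic protein of the NDRG family, and its promoter methylation is part of a stool DNA test. The probe named for the transcript NM_022910 gave a signal of 644 on the AKBA array and 1223 on the control array, with a detection p of 0 on both. Its log2 signal was 9.37 in AKBA cells and 10.03 in control cells, a difference of -0.66, or 1.58-fold lower with AKBA. This was the lowest difference of the 5 expressed genes under each processing tried, and it stood between -0.61 and -0.96 across them. Among 8639 genes detected on at least 1 array, 4.36% were lower by 1.5-fold or more and 2.91% higher, and of the 5 expressed genes 1, NDRG4, passed 1.5-fold after quantile normalization. RASSF1 passed it as well when the arrays were scaled to equal medians, at -0.82, and in the values the authors processed, at -0.67. Relative to the median detected gene it stood at -0.50 and -0.57 in these, short of 1.5-fold. The shares of 4.36% and 2.91% hold for quantile normalization only. The other 3 NDRG4 probes, all named for NM_020465, were not detected at 0.01. Of these, ILMN_2379063 gave a signal of 83.4 and a detection p of 0.12 on the AKBA array, against 99.4 and 0.0487 on the control array, and the rest were at or above 0.05 on both. The NDRG4 signal therefore rests on 1 probe.

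RASSF1 encodes scaffolds with a RAS association domain, and methylation of the promoter of its isoform RASSF1A is frequent in many carcinomas. Its probes gave different values. The brightest, named for NM_170712, gave signals of 189 on the AKBA array and 297 on the control array, at detection p of 0.00395 and 0. Its log2 signal was 7.22 in AKBA cells and 7.74 in control cells, a difference of -0.52. The probe named for NM_007182, the RASSF1A transcript, gave signals of 173 on the AKBA array and 201 on the control array and a log2 difference of 0.045, which became -0.25 once the arrays were scaled to equal medians and -0.057 in the values the authors processed. A dimmer probe, named for NM_170713, gave signals of 101 and 114 at detection p of 0.0303 and 0.0184, and the last of its 4 probes was not detected on either array. The transcripts share downstream exons and the position of each probe was not examined, so the probes cannot be assigned to isoforms.

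CDKN2A encodes p16INK4a, an inhibitor of CDK4 and CDK6, and ARF, which stabilises p53, from separate starts with shared downstream exons. The probe named for NM_000077, the p16INK4a transcript, gave signals of 220 on the AKBA array and 250 on the control array, at detection p of 0.00264 and 0. After normalization for the dimmer AKBA array its log2 difference was 0.11, and it turned to -0.19 when the arrays were scaled to equal medians, a scaling that puts the median detected gene at -0.32. Relative to the median detected gene, it stood between 0.11 and 0.14 under every processing tried. The probe named for NM_058195, the ARF transcript, gave signals of 171 on the AKBA array and 158 on the control array, detection p of 0.00527 and 0.00395, and a log2 difference of 0.51. Both signals lay near the lowest signal detected at 0.01, 141 on the AKBA array and 138 on the control array, so the size is uncertain. Its remaining probe, named for NM_058197, was silent. The position of each CDKN2A probe was not examined either, so the values cannot be assigned to p16INK4a or ARF.

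CDKN2B, the neighbour of CDKN2A, encodes p15INK4b, another CDK4 and CDK6 inhibitor. Of its 3 probes, 1 was detected, with a signal of 130 and a detection p of 0.0105 on the AKBA array (Wilson 95% interval 0.00535 to 0.0207), against 162 and 0.00395 on the control array (0.00135 to 0.0116). These intervals overlap and cover only the counting of negative controls. No fold is given because the bound against the detection limit of the AKBA array came to less than 1, and its log2 difference of -0.21 has no certain size. The other 2 probes were silent on both arrays.

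Across the 5 expressed genes, 4 had a lower normalized signal with AKBA and 1, CDKN2A, a higher one, and the median log2 difference was -0.29. Over all 8639 genes detected on at least 1 array, 53.5% were lower. Their differences had a median of -0.024 and a standard deviation of 0.32. Under equal-median scaling all 5 were lower, and relative to the median detected gene the split was 4 lower to 1 higher under each of the 6 processings. A gene that was detected only because it was bright on 1 array had to differ, as CDKN2B did, and the median without it was -0.41 over 4 genes.

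**Figure D4:**
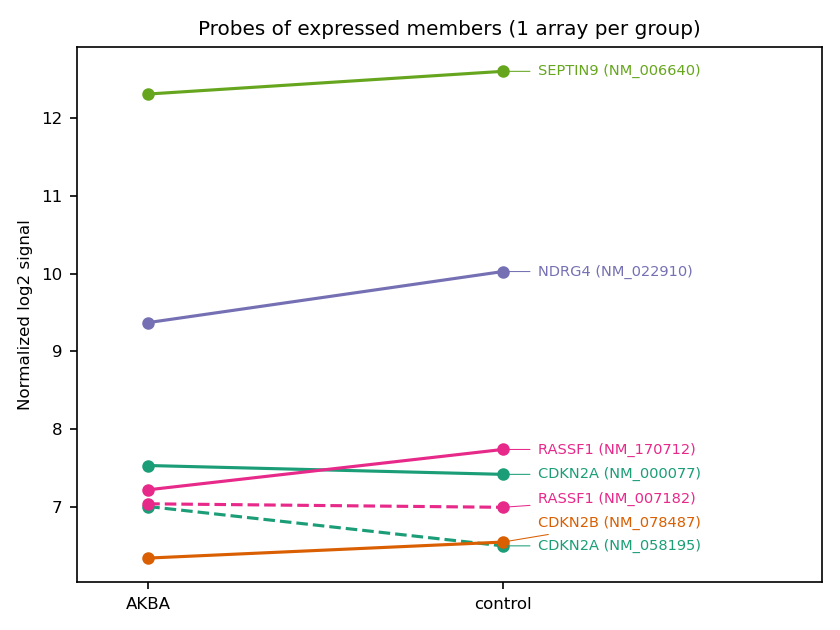
Normalized log2 signal of the 7 probes detected at 0.01 on at least 1 array, on the AKBA array (left) and the control array (right), 1 array each; solid lines are the probe that stands for the gene and dashed lines further probes, and levels of different probes are not comparable. The NDRG4, SEPTIN9 and CDKN2B probes and the brighter RASSF1 probe are lower with AKBA, and both CDKN2A probes and the other RASSF1 probe are level or higher, though equal-median scaling turns the NM_000077 and NM_007182 probes lower, as the authors' values do for NM_007182.

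Of the genes near the detection limit, SAMD14, which encodes a protein with a sterile alpha motif domain, gave a signal of 105 on the AKBA array and 92.8 on the control array. Its detection p was 0.0224 on the AKBA array (Wilson 95% interval 0.014 to 0.0356) and 0.0751 on the control array (0.0584 to 0.0961). BMP3, a bone morphogenetic protein read by a stool DNA test, gave signals of 96.5 on the AKBA array and 81.7 on the control array by 1 of its 2 probes. The detection p of that probe was 0.0408 (0.0289 to 0.0574) on the AKBA array and 0.184 (0.158 to 0.214) on the control array. Its other probe had 78.0 and 68.3 at detection p of 0.2 and 0.611, higher on the AKBA array as well but not detected. HIC1, a zinc finger repressor, gave signals of 93.5 on the AKBA array and 91.5 on the control array at detection p of 0.0474 (0.0345 to 0.065) and 0.0883 (0.0701 to 0.111). For BMP3 and HIC1 the interval of the AKBA array includes the limit of 0.05, as it does for UNC5C below. These intervals cover only the counting of negative controls and not the noise of the probe or the spread between cultures.

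UNC5C and SLC5A8 lay on the other side. UNC5C, a netrin receptor that can signal cell death when its ligand is missing, gave signals of 90.4 on the AKBA array and 109 on the control array. Its detection p was 0.0619 (Wilson 95% interval 0.0469 to 0.0814) on the AKBA array and 0.0277 (0.0182 to 0.0419) on the control array. SLC5A8, a sodium-coupled transporter of butyrate and other monocarboxylates in the colon, gave signals of 85.3 on the AKBA array and 110 on the control array, at detection p of 0.0975 (0.0784 to 0.121) and 0.025 (0.0161 to 0.0388). Just outside the limit lay DAPK1, a kinase that promotes cell death, at 0.0922 on the AKBA array and 0.0514 on the control array. SDC2, a heparan sulfate proteoglycan, lay at 0.0567 on the AKBA array and 0.128 on the control array. No fold is given for these 7 genes, since neither array detected them at 0.01.

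The 5 measured CIMP panel markers were silent. CACNA1G encodes a calcium channel subunit, IGF2 a growth factor, NEUROG1 and RUNX3 transcription factors and SOCS1 an inhibitor of cytokine signalling. Their 9 probes gave signals of 60.4 to 86.0 on the AKBA array and 54.7 to 87.3 on the control array. The lowest detection p among them was that of an IGF2 probe, 0.0922 on the AKBA array and 0.324 on the control array. A pair of probes of CACNA1G had 0.871 and 0.544 on the AKBA array and 0.921 and 0.903 on the control array. By the probe that stands for the gene, 3 of the 5 genes had a lower detection p on the AKBA array and 2 on the control array. Of all named probes at 0.05 or more on both arrays, 50.9% had the lower detection p on the AKBA array.

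All 9 Wnt antagonists and brakes were silent as well. The secreted proteins SFRP1, SFRP2, SFRP4, SFRP5 and WIF1 bind Wnt ligands, DKK2 acts on the Wnt coreceptor LRP6, and DKK3 is a divergent member of its family. SOX17 restrains β-catenin and APC, the main tumour suppressor of the colon, is part of the complex that degrades it. Their 14 probes gave signals of 55.6 to 86.0 on the AKBA array and 60.1 to 85.2 on the control array. The lowest detection p was that of DKK3, 0.0922 on the AKBA array and 0.14 on the control array. WIF1 had a detection p of 0.673 on the AKBA array and 0.232 on the control array, and DKK2 0.731 and 0.146. By the probe that stands for the gene, 8 of the 9 had the higher detection p on the AKBA array, and of 14 probes 12 did. Over all 14072 named probes at 0.05 or more on both arrays, 50.9% had the lower detection p on the AKBA array. All of these values lie within the background of both arrays. APC was read by 1 probe, with signals of 65.9 on the AKBA array and 75.3 on the control array, and a single probe can miss a transcript.

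Among the cell cycle, growth arrest and death genes, CHFR, RASSF2 and DAPK1 were silent, while CDKN2A, CDKN2B and RASSF1 were expressed and HIC1 and UNC5C near the limit. CHFR, a ubiquitin ligase of a mitotic checkpoint, gave signals of 89.3 on the AKBA array and 91.3 on the control array at detection p of 0.0659 and 0.0883. RASSF2, a relative of RASSF1, had a lowest detection p of 0.0777 on the AKBA array and 0.163 on the control array. Of the 8 genes of this group, 3 were expressed, beside 45.8% of all named genes.

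The repair and chromatin genes MGMT and HLTF were silent. MGMT removes alkyl groups from guanine, and its loss is used as a marker of sensitivity to alkylating drugs. It gave signals of 85.1 on the AKBA array and 77.5 on the control array, at detection p of 0.1 and 0.279. HLTF, a helicase-like remodeller of stalled replication forks, gave signals of 74.4 and 75.0 on the AKBA array, against 54.1 and 66.8 on the control array, and detection p of 0.298 and 0.273 on the AKBA array and 0.993 and 0.686 on the control array. All 3 probes of the pair were brighter on the AKBA array and none approached the limit.

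All 6 transcription factors were silent. GATA4 and GATA5 are zinc finger factors of gut endoderm, ESR1 the estrogen receptor, IRF8 a factor of myeloid and interferon programs, EYA4 a transcriptional coactivator and phosphatase, and ALX4 a homeobox factor. The lowest detection p was that of IRF8, 0.125 on the AKBA array and 0.187 on the control array. ESR1 had 0.775 on the AKBA array and 0.825 on the control array. The detection p was lower on the AKBA array for 4 of the 6 and on the control array for 2, beside 50.9% lower on the AKBA array among all silent named probes.

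The 9 measured matrix, adhesion and protease inhibitor genes were silent. TIMP3 inhibits metalloproteinases, TFPI2 is a serine protease inhibitor, and THBS1, EFEMP1 and SPARC are matrix proteins. PCDH10 and ITGA4 are a protocadherin and an integrin subunit, and NPTX2 is a neuronal pentraxin. Their 11 probes, with the SDC2 probe, gave signals of 56.8 to 91.4 on the AKBA array and 60.0 to 87.5 on the control array. TIMP3 had a detection p of 0.387 on the AKBA array and 0.126 on the control array, and EFEMP1 0.922 and 0.323. ITGA4 had 0.187 and 0.248. The detection p was lower on the AKBA array for 5 genes and on the control array for 4. Among all silent named probes it was lower on the AKBA array for 50.9%.

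Of the remaining markers, TMEFF2, UCHL1 and TAC1 were silent. TMEFF2, a transmembrane proteoglycan, gave a signal of 50.1 and a detection p of 1 on the AKBA array, against 72.6 and 0.432 on the control array. UCHL1, a neuronal ubiquitin hydrolase, had a detection p of 0.423 on the AKBA array and 0.823 on the control array. TAC1, the precursor of substance P, had a lowest detection p of 0.281 on the AKBA array and 0.249 on the control array.

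Probes that were silent on both arrays showed how far a signal at background moved without detection. Of 61 such probes, 29 had a lower detection p on the AKBA array (47.5%) and 32 on the control array, against 50.9% with the lower detection p on the AKBA array over all 14072 named probes of this kind. The signal difference, AKBA minus control, had a median of -2.81 and a standard deviation of 8.22 over the 61 probes. Over all 14072 it had a median of -2.13 and a standard deviation of 8.77. Over the 61 probes the range was -22.5, for TMEFF2, to 20.3, for an HLTF probe. Over all 14072 the range was -36.1 to 33.4. Among the genes that crossed 0.05, the difference was 12 for SAMD14, 14.7 for BMP3 and 2.01 for HIC1. It was -18.5 for UNC5C and -24.4 for SLC5A8. SLC5A8 lay outside the range of the 61 probes, and each of these genes lay within that of the 14072. Silent probes had to stay at 0.05 or more on both arrays and these genes had to cross it, so the ranges cannot test the crossings.

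**Figure D5:**
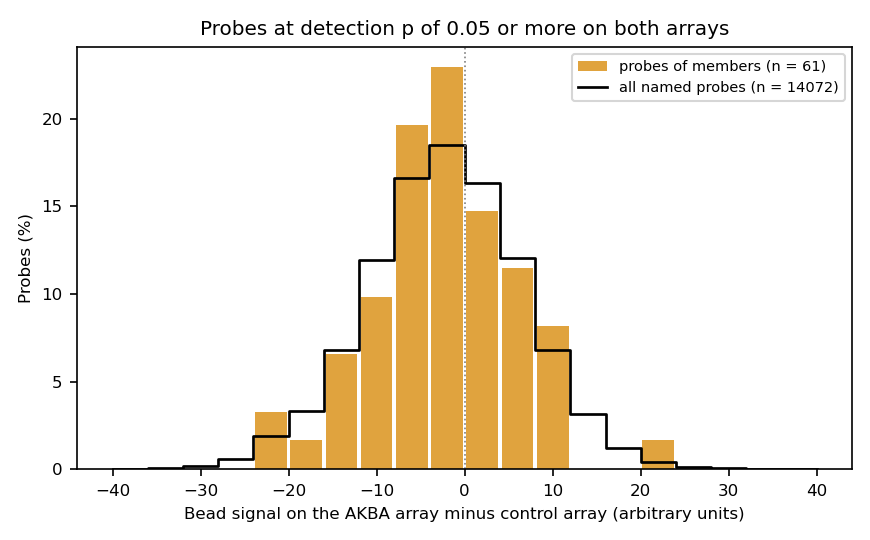
Bead signal on the AKBA array minus that on the control array (arbitrary units, bins of 4) on the x axis and share of probes (%) on the y axis, for probes with a detection p of 0.05 or more on both arrays; bars are the 61 probes of the CpG island genes and the line all 14072 named probes. The bars follow the line, with medians of -2.81 and -2.13.

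A second list held 32 other genes known for CpG island methylation in colorectal cancer, and 27 had a named probe. Of these, 3 were expressed (11.1%), 6 lay near the limit (22.2%) and 18 were silent (66.7%). Over all named genes these shares were 45.8%, 11% and 43.2%. TWIST1, a mesenchymal transcription factor, gave signals of 321 on the AKBA array and 311 on the control array and a log2 difference of 0.41. MAL, a raft-associated membrane protein, had 156 and 157 and a difference of 0.33, whose size is uncertain so near the detection limit. With the arrays scaled to equal medians, which puts the median detected gene at -0.32, TWIST1 stood at 0.099 and MAL at 0.054. SPART, the spartin gene, was detected at 0.01 on the control array only, as were 3.51% of all named genes. Its signals were 98.2 on the AKBA array and 148 on the control array. At 0.05, 2 genes of the list were detected on the AKBA array only and 3 on the control array only. The shares over all named genes were 2.4% and 2.64%. SMPD3, a neutral sphingomyelinase, was among the 2, with signals of 96.9 on the AKBA array and 81.2 on the control array and detection p of 0.0369 and 0.192. Its AKBA signal, and that of the other gene, RARB (94.5), lay under the lowest signal detected at 0.05 on the control array, 99.3. Among the enzymes that write the mark, DNMT1 gave signals of 5150 on the AKBA array and 7699 on the control array and a log2 difference of -0.32, and DNMT3A was not detected on either array. DNMT3B had 155 and 259 and a difference of -0.70, whose size is uncertain because the AKBA signal lay near the detection limit.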

How the data were processed

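Per the labels' protocols, total RNA of each culture was converted to labelled cRNA for Illumina bead arrays. The deposited intensity of a probe is its mean bead signal, with no background subtraction or scaling visible in the values. The deposited detection p-value moves in steps of 1 negative control in 759. Regressed on these signals, the authors' processed intensities had slopes of 1.20 (AKBA) and 1.00 (control), intercepts of -86.5 and -74.7 and medians of 7.63 and 6.50, which settles their scale, centring and direction. Which software made them is not stated in the labels or files.

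All 48803 probes were corrected by normexp (offset 16, background inferred from the detection p), quantile normalized and log2 transformed with limma 3.58.1 (R 4.3.3). Python 3.11.15 with pandas 2.3.3, numpy 2.4.6, scipy 1.17.1 and matplotlib 3.10.9 made the tables and figures. The platform annotation gave 1 gene to 28098 probes, several to 13 and none to 20692, and 28059 of the 28111 identifiers were in the RefSeq table of GRCh38.p14. A gene is read by its brightest probe. Precision is limited by having 1 array per group. Signals are as deposited, and log2 differences are AKBA minus control after normalization. Normalization was tested on simulated data, for probes well above background only. That test does not cover signals near the detection limit. The genes and lists were chosen with earlier results of these data known. Genes named by rule were all expressed members, those that cross 0.01 or 0.05, SAMD14, the lowest detection p in each role, the DNA methyltransferases, SMPD3 and up to 5 detected genes of the second list. Others were named after their values were seen. Alternatives were other detection limits, any or the mean of a gene's probes, an offset of 50, no background correction, equal medians, loess, the authors' processed values with a floor of 16, no filter, and other promoter windows and limits.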

Additional observations from a re-analysis of the deposited data

How the results depend on the processing

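At the 0.01 limit 4 genes were detected on the AKBA array, and the number was 8 at 0.05 and 2 at 0.001. Genes detected on the AKBA array only numbered 0 at 0.01 and 3 at 0.05, and those on the control array only 1 at 0.01, 2 at 0.05 and 2 at 0.001. Counting any probe of a gene changed none of these counts. The median log2 difference of the expressed genes, -0.29, was -0.54 when the arrays were scaled to equal medians, which moves the median of all detected genes to -0.32, and -0.023 without a filter on detection, where most of the 47 genes are at background. CDKN2A, at 0.11, was at -0.19 under equal-median scaling, and RASSF1, at -0.52, was at -0.82 under that scaling and at -0.24 as the mean over its detected probes. The RASSF1 probe of NM_007182, at 0.045, was at -0.25 under equal-median scaling and at -0.057 with the authors' processed values. The 5 expressed genes and their median otherwise kept their sign under the alternatives run. Promoter counts were 28 of 33 genes (84.8%) with only the 250 bases before the start, against 65.6% of all genes with a window and a named probe. At the stricter limit of 0.75 and 55% the count was 20 (60.6%), against 54.0% of all such genes. No paired analysis was possible because each group holds 1 array. Signals near 140 lie at the detection limit of 0.01, where the size of a difference depends on the background correction.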
